A study of Mus musculus with 24 samples.

Results

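The respiratory chain genes described here are those of the 4 respiratory complexes and the ATP synthase, encoded either in the nucleus or in the mitochondrial genome. They were chosen by symbol: Ndufa, Ndufb, Ndufc, Ndufs and Ndufv, Sdha to Sdhd, Uqcr, Cox4 to Cox8 and Atp5 for the nuclear genes, and mt-Nd, mt-Cytb, mt-Co and mt-Atp for the mitochondrial ones. Of 55417 rows of the count table, 120 carried such a symbol. Pseudogene names removed 9 of them, and a minimum of 10 reads in at least 6 libraries removed 8 more, among them mt-Atp8 with 6 reads in all libraries together and Cox8c with 0. The remaining 103 genes were 91 nuclear and 12 mitochondrially encoded members, and all 103 passed the count filter of the test, which kept 16767 genes. The nuclear members comprised 38 genes with complex I subunit symbols, 8 complex I assembly factors, 4 genes of complex II, 8 of complex III, 16 of complex IV and 17 of complex V. The mitochondrial members were 7 complex I, 1 complex III, 3 complex IV and 1 complex V subunits.

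The study silenced entorhinal neurons with GlyCl, a chloride channel that opens when its activating agent is given, and profiled dissected entorhinal cortex in 24 bulk RNA-seq libraries. The 4 groups of 6 libraries were vehicle and 1, 2 or 3 days after channel activation. All mice, vehicle animals included, were adults of 2 to 4 months with the genotype tg/tg, from a cross of Nop-tTA Line S with TRE-GlyCl-YFP Line 9531. There were 4 females and 2 males among the vehicle libraries, and 3 females and 3 males on every day. The activating agent, its dose and the time at which vehicle tissue was taken are not given in the labels. The transgene is limited to cells in which the Nop-tTA driver is active, while each library holds RNA of all cells of the dissected tissue.

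Oxidative phosphorylation passes electrons from NADH through complex I, and from succinate through complex II, to ubiquinone, complex III, cytochrome c and complex IV. The proton gradient built on the way drives ATP synthesis by complex V. Complex II is encoded wholly in the nucleus, whereas complexes I, III, IV and V are mosaics of nuclear and mitochondrial products. In cortex much of the ATP made this way is spent on restoring ion gradients after neuronal firing.

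Depth ran from 16621659 to 23667449 reads per library. Marker transcripts of excitatory neurons (6 genes, 6542 to 7563 CPM summed over the list, where CPM is the read count scaled to library size with TMM factors), astrocytes and oligodendrocytes were abundant in every library. The row of the transgene marker EYFP was at 94.3 to 139 CPM in vehicle, 75.9 to 134 on day 1, 81.6 to 118 on day 2 and 50.9 to 77.4 on day 3, so that only day 3 did not overlap vehicle. Choroid plexus transcripts varied strongly between libraries: Ttr, which encodes transthyretin, was at 562 to 1171 CPM in 8 libraries (1 vehicle, 2 of day 1, 2 of day 2 and 3 of day 3) and at 8.37 to 25.9 CPM in the other 16. On day 3 all 7 microglial markers were above 0 (median 0.18 on the log2 scale), and they summed to 306 to 381 CPM against 272 to 317 CPM in vehicle. Among them Cx3cr1, a microglial receptor gene, rose on day 3 by 0.26 ± 0.06 on the log2 scale (edgeR, adjusted p = 0.0412). The part of these cell types in the values of the respiratory chain genes was not tested.

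No respiratory chain gene passed the test on any day after channel activation. With edgeR's quasi-likelihood test, 0 of 103 members were called at an adjusted p under 0.05 on day 1, when 0.0656% of all genes were called, on day 2 (0.0656%) or on day 3 (0.614%). DESeq2 and limma voom also called 0 members on each day. Without adjustment, p was under 0.05 for 1 member on day 1 (Atp5d), 1 on day 2 (mt-Nd4) and 0 on day 3, where 1215, 872 and 946 of all 16767 genes were. The joint test of the 3 days called 0 members, against 0.644% of all genes, with Ndufb7 having the lowest adjusted p of the members, 0.862. The days were also set against each other: 0 members were called between day 2 and day 1 (0.0119% of all genes), between day 3 and day 2 (0.131%) or between day 3 and day 1 (0.65%), with 0, 2 and 3 members below an unadjusted p of 0.05. No member had all 6 libraries of a day above or below all 6 of vehicle. The share over all genes was 0.596%, 0.328% and 0.662% on days 1, 2 and 3, so that a count of 0 among 103 members is near the background.

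The 95% confidence intervals give the size of change these libraries could still hold. On day 1 the interval lay within 1.2-fold in either direction for 82 of 103 members and within 1.5-fold for 97. On day 2 these counts were 84 and 96, and on day 3 they were 88 and 96. The members with intervals reaching past 1.5-fold on each day were rare transcripts, Cox4i2, Cox6b2, Cox7a1 and Cox8b, and the mitochondrial rows mt-Co2 and mt-Nd3, joined by Ndufa4l2 on day 2 and mt-Nd4l on day 3. In bulk tissue, fewer cells of a type and less RNA per cell cannot be told apart.

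**Figure D1:**
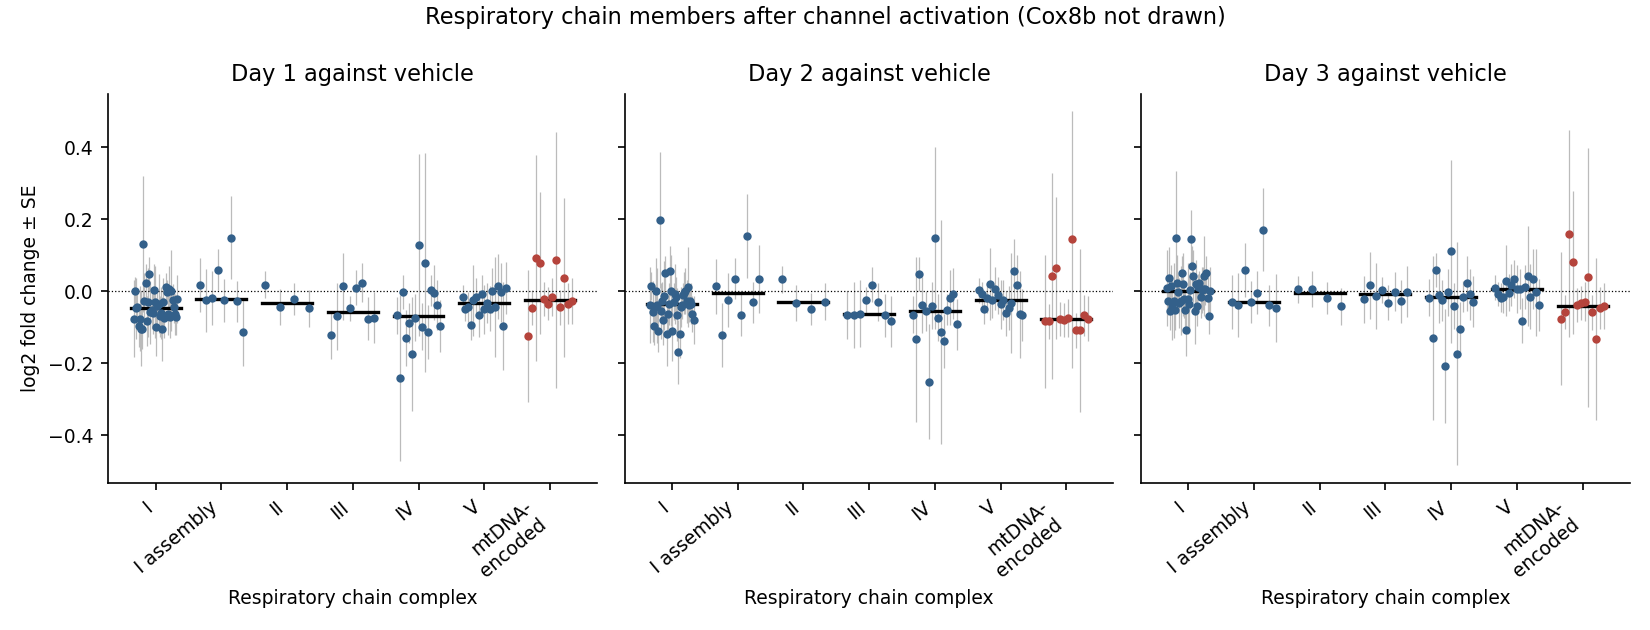
Fitted log2 fold change (y axis) of each member against vehicle on days 1, 2 and 3, with its standard error, grouped by complex. Points are genes, black lines are group medians. Ndufa4 and Ndufa4l2 stand with complex I, after their symbols. Cox8b, at 0.88, 0.80 and 1.54, is left off the axis but is counted in the complex IV median. Medians of the nuclear members were -0.04, -0.03 and -0.00 and no gene was called.

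The median log2 fold change of the nuclear members was -0.044 on day 1, -0.034 on day 2 and -0.0040 on day 3, with 22, 22 and 39 of 91 above 0. Over all genes tested the medians were 0.0011, 0.00059 and -0.0016, with 50.6%, 50.3% and 49.0% above 0. The nuclear values below 0 on days 1 and 2 did not hold throughout. On day 1 the median was 0.015 in males only and -0.0993 in females only. Leaving out 1 library at a time, it stayed below 0 on day 1, from -0.060 to -0.0092, the latter without library 2 of day 1. The day 2 median was 0.0029 without library 3 of day 2. The 12 mitochondrially encoded members had medians of -0.024, -0.077 and -0.040, with 4, 3 and 3 above 0. Those above 0 were all among the 5 rows with nuclear copies described below, which held 0.218% of the mitochondrial members' reads. The other 7 were below 0 on each day. All 3 comparisons share the vehicle libraries, and nuclear members varied together between libraries, so their counts above 0 are not separate results. The SD over vehicle libraries of the median deviation from the gene means was 0.0483 for nuclear and 0.0575 for mitochondrial members on the log2 scale. This SD describes single libraries and is not the error of a difference between groups. In size, all medians were below the SD of their set except that of the mitochondrial members on day 2. On that day 5 of 6 libraries had a median mitochondrial deviation below all of vehicle, and the sixth, library 6, lay above all of vehicle at 0.18.

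As a share of all reads, mitochondrially encoded members took 3.06 to 3.48% in vehicle (median 3.34%), 3.05 to 3.67% on day 1 (3.19%), 2.83 to 3.50% on day 2 (3.14%) and 3.00 to 3.54% on day 3 (3.17%). Nuclear members together took 0.865 to 0.946% in vehicle (median 0.905%), 0.799 to 0.926% on day 1 (0.894%), 0.761 to 0.928% on day 2 (0.921%) and 0.822 to 0.971% on day 3 (0.915%). The ratio of mitochondrial to nuclear member reads, which does not depend on how libraries are scaled, was 3.66 ± 0.156 (SD, n = 6) in vehicle, 3.70 ± 0.454 on day 1, 3.54 ± 0.417 on day 2 and 3.56 ± 0.303 on day 3. Every day's range of this ratio overlapped that of vehicle, 3.50 to 3.90. Its highest value was 4.59 in library 2 of day 1 and its lowest was 3.07 in library 1 of day 2, and the SD of each day was larger than that of vehicle. Mean log2 ratios differed from vehicle by 0.0087, -0.053 and -0.041, each smaller in size than the vehicle SD of 0.0612. This SD describes single libraries and is not the error of a difference between means. The ratio was not adjusted for sex. Leaving out 1 library at a time, the difference ran from -0.056 (without library 2 of day 1) to 0.035 (without library 5 of day 1) on day 1, from -0.103 (without library 3 of day 2) to -0.014 (without library 1 of day 2) on day 2, and from -0.078 to -0.018 on day 3.

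**Figure D2:**
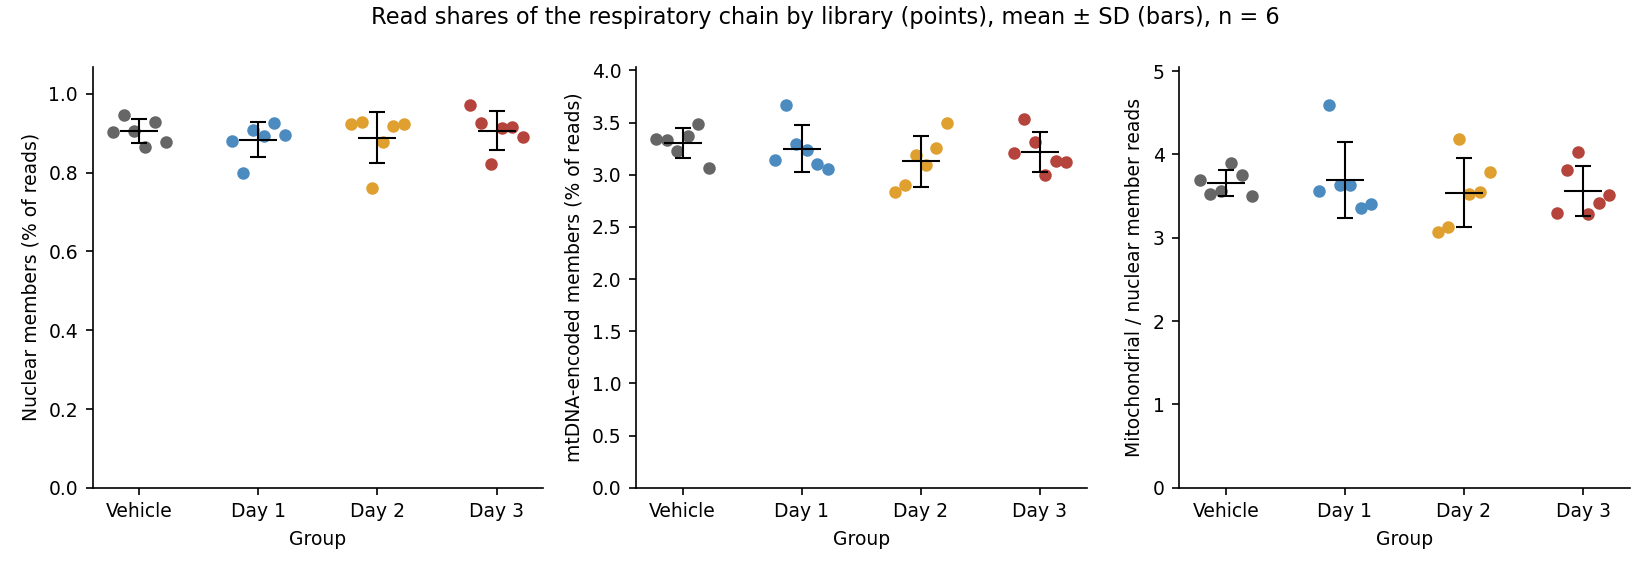
Percent of all reads on nuclear members (left), percent on mitochondrially encoded members (middle) and the ratio of the mitochondrial to the nuclear reads (right) by group. Each point is a library and bars are the mean ± SD of 6 libraries. Mean ratios lie between 3.54 and 3.70, and library 2 of day 1 stands at 4.59.

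Complex I is the NADH dehydrogenase. Of the 38 nuclear genes with its subunit symbols, 8, 8 and 20 were above 0 on days 1, 2 and 3. Their medians were -0.046, -0.036 and 0.0018. Ndufa4 and Ndufa4l2, described below, are counted among them. Ndufs1 and Ndufv1 encode subunits of the arm that oxidizes NADH. Ndufs1 was at 100 to 109 CPM in vehicle (median 104) and at medians of 105, 102 and 105 CPM on the 3 days. Ndufv1 was at 131 to 151 CPM in vehicle (median 139), with medians of 135, 135 and 138 CPM on the 3 days. In both genes each day's libraries overlapped those of vehicle, and log2 fold changes were between -0.06 and 0.01. Ndufb6, a membrane arm subunit, was on day 3 at 21.9 to 30.9 CPM (median 24.8) against 22.2 to 25.7 CPM in vehicle (median 22.4). Its log2 fold change was 0.14 ± 0.08 (SE, adjusted p = 0.976), and 39.0% of its exon bases overlap Smim27 on the other strand. Ndufb2, also of the membrane arm, was the lowest on day 3, at 10.1 to 11.3 CPM (median 11.1) against 9.83 to 13.02 in vehicle (median 11.9), a log2 fold change of -0.11 ± 0.07 (adjusted p = 0.999). Ndufab1, the mitochondrial acyl carrier protein, was at 14.9 to 19.3 CPM in vehicle, and its medians on the 3 days, 16.1, 16.4 and 17.8 CPM, lay within that range.

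Among the other complex I genes nearest to the threshold, Ndufb9 had a log2 fold change of -0.17 ± 0.09 on day 2 (adjusted p = 0.962) and Ndufa12 one of -0.10 ± 0.05 (adjusted p = 0.964). Ndufv2, an iron-sulfur subunit, was at -0.07 ± 0.05 on day 3 (adjusted p = 0.999). Ndufa9 was at 0.05 on all 3 days with an SE of 0.05. Assembly factors, which build the complex and are not part of it, had 3, 4 and 2 of 8 above 0. Ndufaf6 was the highest of them on each day, at 3.90 to 6.98 CPM in vehicle (median 5.22) and medians of 5.98, 5.74 and 6.17 CPM on days 1, 2 and 3. The groups overlapped, and its log2 fold change on day 3 was 0.17 ± 0.12 (adjusted p = 0.999). Ndufaf8 was at -0.05 ± 0.10 and Ndufaf4 at -0.03 ± 0.06 on day 3.

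Ndufa4 carries a complex I symbol, but its product is now regarded as a subunit of complex IV. It was at 142 to 163 CPM in vehicle (median 157), 125 to 157 on day 1 (median 143), 118 to 156 on day 2 (median 144) and 135 to 156 on day 3 (median 151). Its log2 fold change was -0.11 ± 0.06 on day 1 (adjusted p = 0.722), -0.11 ± 0.06 on day 2 (adjusted p = 0.956) and -0.05 ± 0.06 on day 3. Its hypoxia-inducible relative Ndufa4l2, a pericyte transcript in brain, was far rarer per length, at 2.02 against 107 CPM per kb of exon over all libraries. Ndufa4l2 was at 1.22 to 2.81 CPM in vehicle and 1.82 to 2.74 on day 3, with a log2 fold change of 0.15 ± 0.19 on day 3 (adjusted p = 0.999).

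Complex II, the succinate dehydrogenase of the citric acid cycle, had 1, 1 and 2 of 4 genes above 0. Its flavoprotein Sdha was at 372 to 400 CPM in vehicle (median 383), 350 to 412 on day 1 (median 389), 374 to 409 on day 2 (median 397) and 374 to 413 on day 3 (median 380). The log2 fold changes of Sdha were 0.02, 0.03 and 0.01, each with an SE of 0.04, and the day 3 interval ran from 0.952- to 1.06-fold. The iron-sulfur subunit Sdhb was at 95.7 to 109 CPM in vehicle (median 102) and at a median of 105 CPM on day 3, a log2 fold change of 0.01 ± 0.05. The membrane anchors Sdhc and Sdhd had day 3 values of -0.02 ± 0.04 and -0.04 ± 0.05. All 4 genes had intervals within 1.2-fold on every day.

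Complex III, which passes electrons from ubiquinol to cytochrome c, had 3, 1 and 2 of 8 genes above 0. All 8 genes had intervals within 1.2-fold on each day. The core subunit Uqcrc1 was at 240 to 255 CPM in vehicle (median 251) and at medians of 242, 244 and 254 CPM on the 3 days. Uqcrfs1, the Rieske iron-sulfur protein, had medians of 107 CPM in vehicle and 111, 107 and 106 CPM on the days. The small subunit Uqcr10 was at 73.2 to 83.7 CPM in vehicle (median 80.9) and 65.8 to 81.1 on day 1 (median 73.1). The groups overlapped, and the log2 fold change was -0.12 ± 0.07 (adjusted p = 0.732). On day 3 Uqcr11 was at 0.02 ± 0.09 and Uqcrc2 at -0.03 ± 0.05.

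Complex IV is the cytochrome c oxidase. Without Ndufa4 and Ndufa4l2 it had 4, 3 and 4 of 16 nuclear genes above 0, with medians of -0.070, -0.054 and -0.017. Several of its subunits exist as ubiquitous and tissue-restricted isoforms, and in each pair below the ubiquitous one was the more abundant per length. Per kb of exon, Cox8a (572 ± 56.5 CPM per kb, SD over 24 libraries) and Cox6a1 (434 ± 33.4) were the most abundant of all nuclear members, followed by the ATP synthase genes Atp5a1 (257) and Atp5b (235). Exon length here counts every base in any annotated exon of a gene, and this order depends on that choice. Atp5b, for example, has 4237 exon bases but a longest transcript of 1916 bases. Cox4i1 was at 177 CPM per kb against 1.79 for Cox4i2, an isoform known from lung and hypoxic cells. Cox6b1 was at 183 against 1.67 for the testis isoform Cox6b2, and Cox7a2 at 94.1 against 1.48 for the heart and muscle isoform Cox7a1. Cox6a2, the heart and muscle form of Cox6a1 that parvalbumin interneurons also express, was at 4.45 CPM per kb. The rare isoforms rested on few reads, so a change in them was hard to detect.

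Among the ubiquitous forms, Cox4i1 was at 265 to 306 CPM in vehicle (median 280) and 247 to 302 on day 3 (median 278), a log2 fold change of -0.02 ± 0.05. Cox8a was at 344 to 424 CPM in vehicle (median 359) and 291 to 418 on day 3 (median 361), a log2 fold change of -0.03 ± 0.07. Cox6b1 was at -0.00 ± 0.06 and Cox7a2l, a supercomplex assembly protein, at -0.02 ± 0.04. Cox7a2 was at 83.7 to 103 CPM in vehicle (median 95.2) and at medians of 89.7, 86.5 and 87.3 CPM on the days, with log2 fold changes of -0.11, -0.14 and -0.10, each with an SE of 0.07 or 0.08 and adjusted p of 0.817, 0.968 and 0.999. Cox5b was at 144 to 182 CPM in vehicle (median 162) and 119 to 163 on day 1 (median 151), a log2 fold change of -0.13 ± 0.08 (adjusted p = 0.774). Cox5a was at 0.06 ± 0.05 on day 3. Cox6a2 had medians of 3.34 CPM in vehicle and 3.11, 2.96 and 2.81 on the days, with log2 fold changes of -0.17 ± 0.16, -0.25 ± 0.16 and -0.21 ± 0.16. The 6 parvalbumin interneuron markers had 1, 0 and 0 genes above 0 on the 3 days, with 0 called and 2, 3 and 3 below an unadjusted p of 0.05. Their summed level was 767 to 883 CPM in vehicle and 713 to 790 CPM on day 3, and their part in the Cox6a2 values was not tested.

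Cox8b, the heart and muscle form of Cox8a, was the rarest nuclear member per length, and its libraries fell into 2 sets. In vehicle its 6 values were 0.056, 0.10, 0.053, 0.16, 0.73 and 0 CPM, and on day 3 they were 0.25, 0.98, 0.48, 0.048, 0.049 and 1.16 CPM. In the 8 libraries with Ttr at 100 CPM or more, Cox8b was at 0.481 to 1.195 CPM (8 to 23 reads), and in the other 16 at 0 to 0.248 CPM (0 to 5 reads), with no overlap. Cox8b met the minimum of 10 reads in 6 libraries only through those 8, where it is high. The share of all genes that separate between the 2 sets was not computed. The fitted log2 fold change on day 3 was 1.54 ± 0.94 (adjusted p = 0.999), and 3 of the 6 day 3 libraries but 1 of the 6 vehicle libraries were among those 8. The 9 choroid plexus markers in the fit were all above 0 on each day, with 0 called and 0 below an unadjusted p of 0.05, and their summed level spanned 17.4 to 1299 CPM in vehicle and 22.7 to 1187 CPM on day 3. Whether Cox8b reads came from choroid plexus tissue was not tested. Cox7a1, Cox4i2, Cox6a2, Cox6b2 and Ndufa4l2 overlapped between the same 8 and 16 libraries.

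Complex V, the ATP synthase, had 3, 5 and 9 of 17 genes above 0, with medians of -0.033, -0.023 and 0.0061. Its catalytic subunits Atp5a1 and Atp5b had coefficients of variation of 3.52% and 3.62% over 24 libraries. Atp5b was at 959 to 1059 CPM in vehicle (median 1010) and at medians of 982, 998 and 1008 CPM on the 3 days, and its day 3 interval ran from 0.949- to 1.04-fold. Atp5d, the delta subunit of the rotor stalk, was at 213 to 225 CPM in vehicle (median 218) and 191 to 213 on day 1 (median 203). The highest day 1 library lay just above the lowest vehicle library, and the log2 fold change was -0.09 ± 0.04 (edgeR adjusted p = 0.644). Atp5d was at medians of 217 and 214 CPM on days 2 and 3, with log2 fold changes of -0.02 on both. On day 3 the lowest value was that of Atp5j, a peripheral stalk subunit, at -0.08 ± 0.06, and the highest that of Atp5k at 0.04 ± 0.14.

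RefSeq promoter sequences (GRCm38.p6, 250 bases before to 50 after the start) were found for 75 of the 91 nuclear members. The core of the site of NRF1, a transcription factor known for driving respiratory chain genes, was searched as CATGCGC on both strands and stood in 15 of 75 (20%) against 4.04% of all 27025 promoters and 4.89% of the 17492 of coding genes. The core of the ETS site, which the factor GABPA binds, was searched as CCGGAAG and stood in 17 (22.7%) against 9.12% and 11.9%. Both stood in 6 (8.0%) against 0.670% and 0.886%. A match is only a run of letters and no binding was measured. Cox5b and Cox6a1 are shown because the first carries 1 NRF1 core and the second carries overlapping NRF1 cores on both strands and an ETS core. The stretch of Cox5b is the 100 bases before its start on the plus strand (chr1:36691387-36691486), and that of Cox6a1 the 200 bases before its start on the minus strand (chr5:115348959-115349158). Capitals mark the cores on either strand.
Cox5b: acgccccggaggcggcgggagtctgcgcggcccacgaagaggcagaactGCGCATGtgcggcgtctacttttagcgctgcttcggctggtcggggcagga
Cox6a1: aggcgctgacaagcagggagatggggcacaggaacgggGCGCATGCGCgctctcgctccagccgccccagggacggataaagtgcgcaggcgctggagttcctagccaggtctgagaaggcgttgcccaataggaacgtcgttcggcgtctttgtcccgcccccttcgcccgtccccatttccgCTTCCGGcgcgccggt

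The mitochondrially encoded members fell into 2 sets of very different level. The genes mt-Co1, mt-Cytb, mt-Nd1, mt-Nd2, mt-Nd4, mt-Nd5 and mt-Nd6 were at 1321 to 8333 CPM per kb, above every nuclear member. mt-Co2, mt-Co3, mt-Atp6, mt-Nd3 and mt-Nd4l were at 3.37 to 54.0 CPM per kb, although all but mt-Nd6 are cut from the same heavy-strand precursor. These 5 rows held 0.218% of the mitochondrial members' reads, whereas mt-Co1 alone held 39.8%. The same 5 had 97.6 to 99.9% of their 100-base windows present, letter for letter, in annotated pseudogenes, for which the closest copy lies on chromosome 1 in a stretch of mitochondrial sequence inserted in the nuclear genome. The share was 60.8% for mt-Nd4, 30.8% for mt-Co1 and at most 3.19% for the other 5. mt-Atp8, left out for its 6 reads, had 0% of its windows in another annotated gene. The search covered annotated transcripts only, so it cannot tell whether nuclear sequence outside them matches mt-Atp8. How reads that match both places were counted is not given in the sources used here, and its part in the low values of these 5 rows was not tested.

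**Figure D3:**
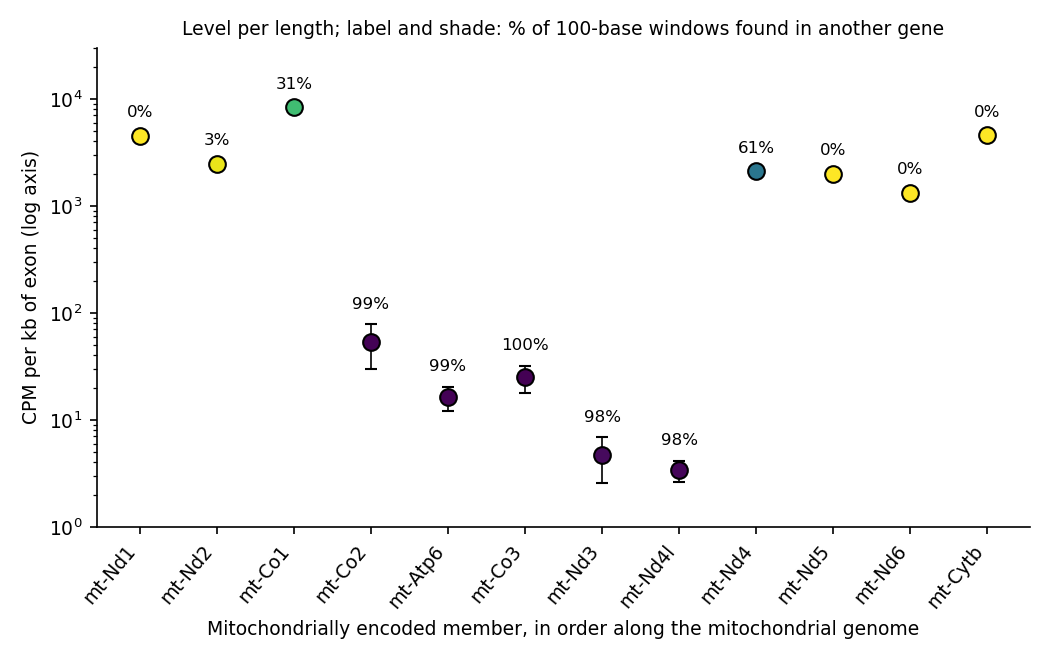
Mean level of each mitochondrially encoded member in CPM per kb of exon on a log axis, with the SD over 24 libraries, in the order of the mitochondrial genome. Shade and label give the percent of 100-base windows found in another annotated gene. The 5 rows from 97.6% up lie at 3.37 to 54.0 CPM per kb and the other 7 at 1321 to 8333.

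To show how alike the copies are, the first 80 bases of 2 genes are set beside their nuclear copies, from the GRCm38 transcript annotation. mt-Co2 and Gm28661 (chr1:24614885-24615565, minus strand) are identical over all 681 bases of the copy. mt-Nd3 and Gm28438 (chr1:24612775-24613119, minus strand) differ over the 345 bases of the copy only by T3C, counted from the first base of mt-Nd3, and capitals mark that base.
mt-Co2: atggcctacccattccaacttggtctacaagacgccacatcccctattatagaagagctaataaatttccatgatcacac
Gm28661: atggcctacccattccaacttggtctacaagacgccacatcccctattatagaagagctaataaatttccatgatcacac
mt-Nd3: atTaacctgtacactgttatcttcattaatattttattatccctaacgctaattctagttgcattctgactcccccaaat
Gm28438: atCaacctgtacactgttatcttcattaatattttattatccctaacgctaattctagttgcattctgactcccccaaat

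The 7 well covered mitochondrial genes moved little. mt-Co1, the catalytic core of complex IV, was at 12376 to 13771 CPM in vehicle (median 13570), 12076 to 14379 on day 1 (median 12793), 11233 to 13713 on day 2 (median 12644) and 11983 to 14124 on day 3 (median 12516). Each day overlapped vehicle, and the log2 fold changes were -0.05, -0.08 and -0.06, each with an SE of 0.05. mt-Cytb, the only mitochondrial product in complex III, was at -0.02, -0.08 and -0.04, each with an SE of 0.05. mt-Nd4, a proton-pumping subunit of complex I, was at 2791 to 3224 CPM in vehicle (median 3007), 2495 to 3091 on day 2 (median 2701) and 2701 to 3104 on day 3 (median 2855). Its day 2 log2 fold change of -0.11 ± 0.05 was the only one of the 12 mitochondrial members to fall below an unadjusted p of 0.05 (edgeR adjusted p = 0.920). mt-Nd1, mt-Nd2, mt-Nd5 and mt-Nd6 had day 2 values of -0.08, -0.07, -0.07 and -0.08. All 7 of these genes were below 0 on each day, and each had intervals within 1.2-fold on each day. The ribosomal RNAs mt-Rnr1 and mt-Rnr2 of the same genome, which are not members, were at 2605 to 2933 and 3614 to 3890 CPM in vehicle, with medians of 2784 and 3785 CPM. On days 1, 2 and 3 the medians were 2614, 2540 and 2532 CPM for mt-Rnr1 and 3548, 3437 and 3486 CPM for mt-Rnr2, and each day overlapped vehicle.

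Some rows with chromosome 1 copies differed between libraries in every group. mt-Co2 was at 67.2 CPM in library 6 of vehicle, 66.7 in library 6 of day 1, 73.3 in library 6 of day 2, and 62.0 and 68.3 in libraries 5 and 6 of day 3, and at 19.1 to 32.6 CPM in the other 19. These 5 libraries are those whose titles end in a number from 27 up, a property looked at after the values were seen. What that number stands for is not given in the labels, and 4 of the 5 libraries are male. In the same 5 libraries mt-Co3 was at 27.2 to 33.5 CPM against 13.1 to 19.96 in the rest, and mt-Atp6 at 14.1 to 18.3 against 7.91 to 13.6. The copies Gm28661 (93.1 to 119 against 30.1 to 71.8 CPM), Gm10925, Gm28437 and Gm29216 also did not overlap between these libraries. The copies Gm28438, Gm10222 and Gm28439 did overlap, as did the other 9 mitochondrial members. The share of all genes that separate between these 5 and the other 19 libraries was not computed. With the 5 libraries kept in, the log2 fold changes of mt-Co2 were 0.09 ± 0.29, 0.04 ± 0.29 and 0.16 ± 0.29 on the 3 days (adjusted p = 0.973, 0.997 and 0.999).

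Gm28438, the copy of mt-Nd3, split the libraries in another way. It was at 22.1 to 28.3 CPM in 11 libraries (3 vehicle, 3 of day 1, 2 of day 2 and 3 of day 3, 6 males and 5 females) and at 0.794 to 2.36 CPM in the other 13, with none between. None of the 5 libraries with title numbers from 27 up was among the 11. How reads were assigned between these 2 rows, and whether all mice carry the same base where they differ, was not tested, so neither row is read as a transcript level. mt-Nd3 itself was at 0.541 to 1.37 CPM in the 11 and 1.348 to 3.17 CPM in the 13. Both kinds of library occurred in every group, and mt-Nd3 had a log2 fold change of 0.09, 0.14 and 0.04 on the days with SEs of 0.36.

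**Figure D4:**
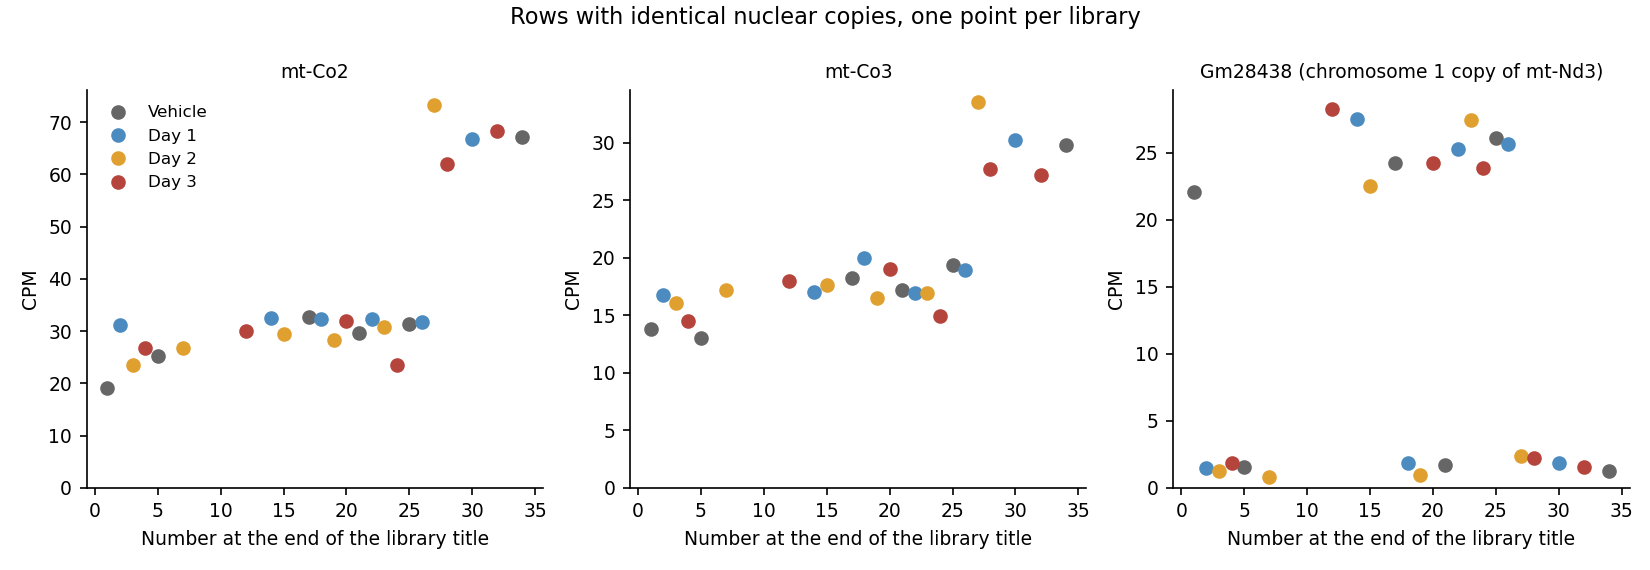
CPM of mt-Co2, mt-Co3 and Gm28438 (y axes) against the number at the end of the library title (x axis), a point per library, coloured by group. The 5 libraries from 27 up hold 62.0 to 73.3 CPM of mt-Co2 against 19.1 to 32.6 in the rest, and Gm28438 is at 22.1 to 28.3 CPM in 11 libraries and 0.794 to 2.36 in 13.

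Nuclear members varied together between libraries. The median deviation of the 91 genes from their means was -0.29 on the log2 scale in library 3 of day 2, -0.15 in library 2 of day 1 and -0.12 in library 3 of day 3, and 0.14 in library 1 of day 3. The 22 members with less than 1000 bases of exon spread the most, from -0.41 in library 3 of day 2 to 0.20 in library 1 of day 3, and the 21 members with 3000 bases or more ranged from -0.18 to 0.09 in the same libraries. Other short genes did likewise: the 87 other coding genes under 1000 bases with a mean of at least 10 CPM were at -0.31 and 0.19, and the 79 ribosomal protein genes at -0.22 and 0.16, in those libraries. The 7773 other long genes were at 0.05 and -0.02. No measure of RNA quality is given in the labels, and its part in these values was not tested. Lengths here count every base in any annotated exon of a gene, so a long member can have short transcripts. Atp5j, for example, has 3130 exon bases but a longest transcript of 927 bases. Library 3 of day 2 holds the lowest value of the day for the short genes Cox8a (266 CPM) and Uqcr11 (55.5 CPM), where the other day 2 libraries were at 344 to 374 and 78.5 to 86.8 CPM.

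**Figure D5:**
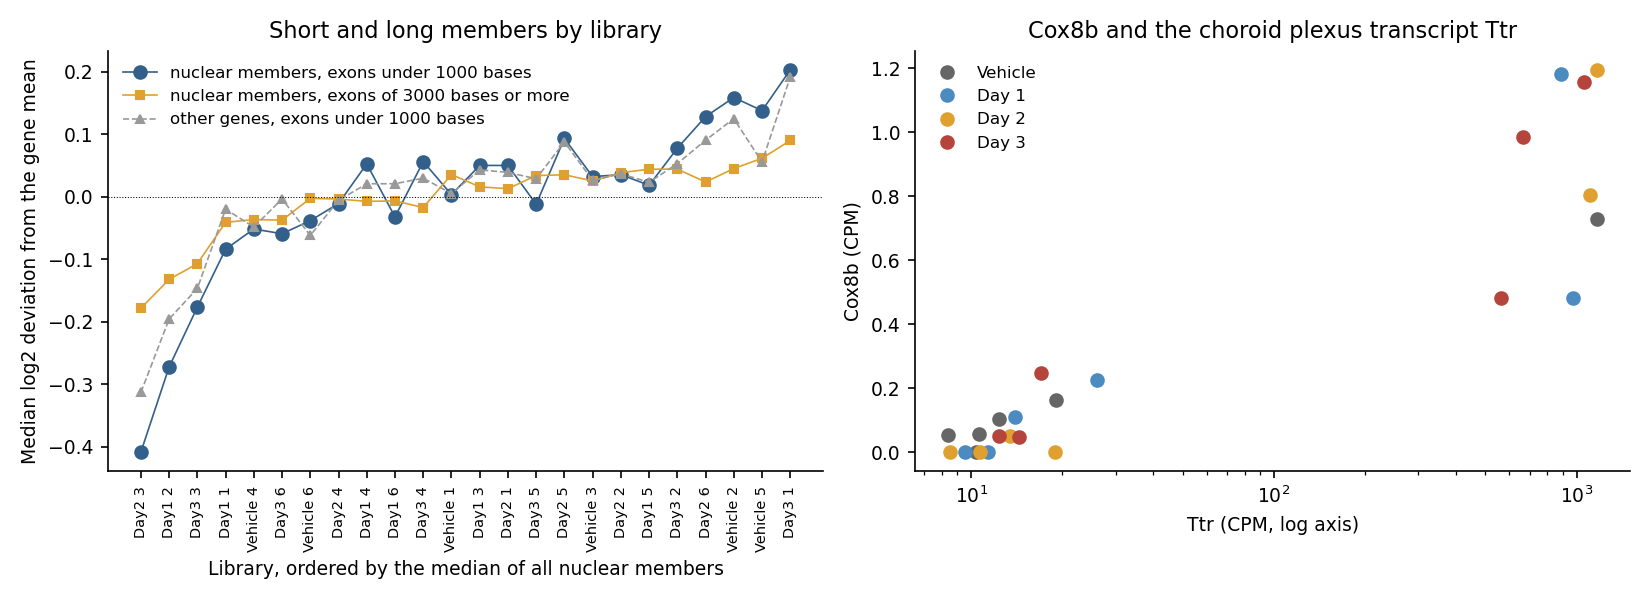
Left, median log2 deviation (y axis) of short nuclear members, long nuclear members and other short genes in each library, ordered by the median of all nuclear members; the lines fall and rise together, from -0.41 to 0.20 for short members. Right, Cox8b against Ttr, both in CPM with Ttr on a log axis, a point per library; the 8 libraries with Ttr at 562 CPM or more hold 0.481 to 1.195 CPM of Cox8b.

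Sex was also compared in the same fit. Of the nuclear members 84 of 91 were higher in females, with a median log2 difference of 0.040, where 50.6% of all genes were above 0. Nuclear members varied together between libraries, so these 84 are not separate results. The test called 0 members, against 0.0716% of all genes. Below an unadjusted p of 0.05 were 7 of 103 members, where 1174 of all 16767 genes were. Sdhc (0.09 ± 0.03), Ndufaf5 (0.11 ± 0.04) and Atp5d (0.08 ± 0.03) were nearest to the threshold, each with an edgeR adjusted p of 0.625. mt-Co2 was lower in females by the fit, at -0.36 ± 0.20 (adjusted p = 0.737), and 4 of the 5 libraries with high mt-Co2 were male.

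Genes that make, maintain or feed the respiratory chain were read from 6 lists, and 0 of their genes were called on any day. Below an unadjusted p of 0.05 were 2, 3 and 4 of the 23 biogenesis genes on days 1, 2 and 3, and at most 2 genes on any day in each of the other lists. Over all 16767 genes the counts were 1215, 872 and 946. Of 23 regulators of mitochondrial biogenesis, 10, 11 and 7 were above 0 on days 1, 2 and 3. The nuclear receptor Esrra, an activator of respiratory genes, had the lowest p of the list on day 1, with log2 fold changes of -0.18 ± 0.06, -0.16 ± 0.06 and -0.16 ± 0.06 (adjusted p = 0.345, 0.766 and 0.564). Nrf1 was at -0.17 ± 0.06 on day 1 and -0.15 ± 0.06 on day 2 (adjusted p = 0.425 and 0.794). Tfam, which packages mitochondrial DNA and starts its transcription, was at -0.15 ± 0.05 on day 3 (adjusted p = 0.416).

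Of 20 genes of mitochondrial RNA handling and translation, 13, 13 and 12 were above 0. Lrpprc, which stabilizes mitochondrial messenger RNAs, was at 0.11 ± 0.04 on day 1 (adjusted p = 0.465), and Fastkd5, which acts in the processing of these RNAs, at -0.39 ± 0.17 (adjusted p = 0.596). Of 39 further assembly factors, 24, 20 and 20 were above 0, and Sdhaf4, which helps assemble complex II, was at -0.28 ± 0.13 and -0.35 ± 0.13 on days 1 and 2 (adjusted p = 0.658 and 0.794). Uqcc1, an assembly factor of complex III, was at -0.12 ± 0.05 on day 3 (adjusted p = 0.785). Of 21 carriers, porins and ubiquinone genes, 11, 12 and 11 were above 0, with the uncoupling protein gene Ucp2 at 0.32 ± 0.14 and 0.31 ± 0.14 on days 2 and 3 (adjusted p = 0.890 and 0.805) and the carrier gene Slc25a14 at 0.11 ± 0.05 on day 1 (adjusted p = 0.644). Citric acid cycle and pyruvate dehydrogenase genes had 2, 6 and 5 of 16 above 0. The 16 glycolytic symbols matched 17 rows, of which 2, 7 and 14 were above 0. Gpi1, a glycolytic isomerase, was at -0.09 ± 0.03 on day 1 (adjusted p = 0.524), and Gapdh at -0.07 ± 0.03 (adjusted p = 0.572). Suclg1 and Idh3b of the citric acid cycle were at -0.09 ± 0.04 and -0.07 ± 0.04 on day 2 (adjusted p = 0.920 and 0.956).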

How the data were processed

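The deposited table gives raw counts per gene, as whole numbers, for 24 libraries. Per the submitters' processing notes STAR 2.7.9a, fastp 0.23.1 and DESeq2 1.32.0 were used, on mm39. The counting program, annotation, use of strand and treatment of reads with several matches are unstated there and in the labels. Gene identifiers were given symbols from GRCm38 (52083 of 55417 rows matched), where Atp5a1 and Atp5b are the genes now called Atp5f1a and Atp5f1b. Members and lists were chosen with earlier results of these data known.

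Counts were tested with edgeR 4.0.16 in R 4.3.3 (quasi-likelihood test, two-sided, TMM factors, filterByExpr with 10 reads, terms for group and sex, all 24 libraries), adjusted by Benjamini-Hochberg over 16767 genes and called under 0.05; the biological coefficient of variation was 8.51%. CPM were computed from these counts with TMM factors. The script was tested on simulated data. Alternatives were DESeq2 1.42.0, limma 3.58.1 (voom), other factors and filters, single sexes and left-out libraries. Genes were named by rule: all mitochondrial members (12 after the count minimum), the 4 nuclear members with the smallest p in each direction on each day, the extremes of each complex on day 3, isoform families, fixed core subunits and the leading genes of each list; rows with chromosome 1 copies, Ndufaf5 and genes in counts of 5 or fewer were added after their values were seen. Sharing with other genes was the percent of 100-base windows found exactly in transcripts of genes elsewhere in the GRCm38 annotation, which is not the files' build. Short and long members, and deviations from each gene's mean log2 CPM (pseudocount 0.5), were descriptive. Each library has its own animal number, but the labels do not say that each is a separate animal; otherwise p-values measure only the spread between libraries. Depth was 16621659 to 23667449 reads per library. A marker gene result is not reported here.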

Additional observations from a re-analysis of the deposited data

Results flagged for a closer look

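In each group of 6 libraries, a value was marked when its distance to the nearest other library exceeded 0.625 of the group's range (Dixon's 95% limit). This marked 32 of 232 groups, where chance marks about 1 in 20, and groups share libraries and genes, so the marks are not independent.

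Library 3 of day 2 stood lowest of its group for the median deviation of nuclear members (-0.29), their percent of reads (0.761%), Atp5j (69.7 CPM), Uqcr11 (55.5), Cox4i1 (225), Cox6a1 (259.9), Cox6b1 (98.9) and Cox8a (266). Library 2 of day 1 stood highest for the log2 ratio of mitochondrial to nuclear reads (2.20), the median deviation of mitochondrial members (0.18) and mt-Nd5 (4360 CPM). The same library stood lowest for the nuclear percent of reads (0.799%), Sdhb (87.5 CPM), Sdhd (54.3), Uqcrfs1 (94.4) and Ndufv1 (113). Its Ttr was high at 887 CPM, and that of library 3 of day 2 was low at 10.7.

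Libraries with title numbers from 27 up stood highest for mt-Co2 (67.2 CPM in vehicle, 66.7 on day 1 and 73.3 on day 2), mt-Co3 (30.3 on day 1 and 33.5 on day 2) and mt-Atp6 (17.3 in vehicle and 18.3 on day 2).

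Single libraries stood apart for the remaining 9 values. In vehicle these were Ndufa9 (49.6 CPM, lowest, library 6), Cox8b (0.73, highest, library 5), Atp5j (82.8, lowest, library 4) and Ndufaf8 (18.7, highest, library 2). On day 3 they were Ndufaf4 (20.1 CPM, lowest) and Uqcrc2 (109.6, lowest) in library 6, Uqcr10 (64.8, lowest, library 3), Ndufb2 (10.1, lowest, library 2) and Sdha (413, highest, library 1).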

How the results depend on the processing

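In 120 alternative fits of the 3 days against vehicle (other tools, factors, filters, samples and terms, and each library left out), 0 members were called in all 120. Between days and sexes 1 further fit made a call: without a filter on low counts, 1 member (mt-Co2) was called between the sexes. The edgeR adjusted p of mt-Co2 was 8.0e-13 in that fit and 0.737 in the reported one. The share of all genes called in that fit is not given here, so the call has no background beside it. Median log2 fold changes moved from the reported value by less than 1 SD of the vehicle libraries except in these fits: nuclear members on day 1 were at -0.0993 in females only and at 0.0152 in males only, and mitochondrial members on day 2 were at -0.146 without the 5 libraries with title numbers from 27 up. The log2 ratio of mitochondrial to nuclear reads moved on day 1 (reported 0.0087) to -0.0596 without the libraries rich in Ttr and to -0.0556 without library 2 of day 1 and library 3 of day 2. On day 3 (reported -0.041) it was 0.0204 in males only and -0.125 when the same Ttr-rich libraries were dropped. Leaving out each library in turn gave -0.0556 to 0.0352 for the day 1 ratio, the lowest without library 2 of day 1. Where samples were left out the fit held fewer libraries; the cause was not tested. The alternatives without title numbers from 27 up, without library 2 of day 1 and library 3 of day 2, and with the 5 copied mitochondrial rows removed were chosen after seeing the data. No paired analysis was possible because replicate numbers were given in accession order and pair no samples. Rare isoforms and mt-Nd3 lay under 5 CPM, and depth was not separated there from the splits between libraries.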
